A study of Mus musculus with 8 samples.

Results

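Ferritin and the iron regulation genes were read as 8 genes of the 48315 gene symbols in the deposited tables: Fth1, Ftl1, Tfrc, Slc40a1, Aco1, Ireb2, Slc11a2 and Trf. They were chosen by symbol, rows with the same symbol were summed, and they took 9 of the 48431 deposited rows. All 8 had a mean of at least 1 CPM (reads per 1000000 assigned reads, not divided by gene length), the level below which genes were left out of the tests. The libraries are ribosome footprints of dorsal root ganglia (DRG), which house sensory neurons and their glia. The mice were wild type, with SW as the strain label, and all had saline; 4 libraries are labelled female and 4 male. The labels used here give neither age nor pooling of animals. Since no label ties each library to its own animal, p-values measure only how far these samples spread, and that spread may be technical. RNA abundance libraries were not used here, so a level is an amount of footprints and not a translational efficiency.

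Iron enters most cells bound to transferrin, which its receptor carries into endosomes, where the divalent metal transporter moves the metal into the cytosol. Ferritin, a shell of heavy and light chains, stores what is not used, and ferroportin exports it. A pair of RNA-binding proteins, the iron regulatory proteins, set the balance when iron is scarce: they bind hairpins called iron response elements (IREs). Bound in front of the coding sequence, they keep ribosomes off ferritin and ferroportin mRNA, and bound behind it, they protect the mRNA of the transferrin receptor from decay. In the peripheral nervous system Schwann cells, satellite glia, macrophages and neurons all handle iron, and these libraries mix them.

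The hairpins are shown because they tie several of these genes to the same regulators. The transcripts of GENCODE M21 (GRCm38) were searched on their own strand for a C, then 5 bases that pair with 5 bases behind the loop CAGTGN, with at least 4 of 6 further pairs below the C. Of 22527 coding genes, 48 held such a hairpin (0.213%), among them 4 of the 8 genes here. Each is printed 5′ to 3′ with 30 bases, and the capitals mark the loop. The first 3 lie in the 5′ untranslated region, at chr19:9982732-9982761 on the plus strand for Fth1, chr7:45459778-45459807 on the minus strand for Ftl1 and chr1:45925464-45925493 on the minus strand for Slc40a1.
Fth1: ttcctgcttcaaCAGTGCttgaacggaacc
Ftl1: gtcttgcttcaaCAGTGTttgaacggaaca
Slc40a1: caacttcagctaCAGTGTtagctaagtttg
The other 4 stand in the 3′ untranslated region of Tfrc, on the plus strand of chromosome 16, at 32631219 to 32631248, 32631598 to 32631627, 32631663 to 32631692 and 32631710 to 32631739, in this order.
Tfrc 1: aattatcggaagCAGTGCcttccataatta
Tfrc 2: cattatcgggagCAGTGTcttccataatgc
Tfrc 3: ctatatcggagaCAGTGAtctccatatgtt
Tfrc 4: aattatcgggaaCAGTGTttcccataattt
The coding transcripts of Slc11a2, Aco1, Ireb2 and Trf held no such letters, which says only that this pattern is not in them.

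Before the results, 3 of the 8 libraries have to be named. The summed Y-linked genes Ddx3y, Eif2s3y, Kdm5d and Uty and the X-inactivation RNA Xist went against the label in female 1, female 3 and male 1, so a library is called by its label throughout. Female 1 and female 3 were also much closer to each other than any other pair: 1.73% of genes differed at p below 0.001 by a chi-square test of their reads, against 13.0% to 37.9% in the other 27 pairs. Assigned reads were between 5729313 and 11514367 in libraries labelled female and between 3697691 and 12714554 in those labelled male. Sensory neuron markers, from Nefl to Scn11a, were present throughout, with a sum of 16301 to 19505 CPM under the female label and 13375 to 18928 CPM under the male one. Counting error is smallest for Fth1 (1548 to 6001 reads per library) and largest for Slc40a1 (43 to 184 reads).

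The heavy chain of ferritin stood far above every other gene of the set. Fth1 (chromosome 19, 9980598 to 9985098), whose product oxidises iron for storage, was at 441, 515, 438 and 412 CPM in female 1 to 4, against 419, 599, 472 and 361 CPM in male 1 to 4. Male 2 was the highest library and male 4 the lowest, so the range of male libraries enclosed that of female ones. Divided by coding length (0.546 kb), its level averaged 837 ± 133 CPM per kilobase (SD, n = 8), which put it at rank 82 of 14082 protein-coding genes averaging 1 CPM or more.

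Ftl1 (chromosome 7, 45457944 to 45459884), the light chain that helps the iron core form, was read at a small share of this. It had 43.5, 50.5, 38.7 and 34.0 CPM in female 1 to 4, against 29.96, 45.8, 40.5 and 28.2 CPM in male 1 to 4. Female 2 was highest and male 4 lowest, the labels overlapped, and the value of male 1 rests on 111 reads. Per kilobase of coding sequence Ftl1 averaged 70.9 ± 14.2 CPM (SD, n = 8), at rank 1852, although both chains have coding sequences of almost the same length (0.549 kb for Ftl1).

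Reads of Ftl1 can be placed far less surely than those of Fth1. Of the 520 stretches of 30 bases in the Ftl1 coding sequence, 497 (95.6%) also occur letter for letter in transcripts of other genes, 32 in all, mostly processed pseudogenes. For Fth1 it was 122 of 517 stretches (23.6%), in 3 other genes. The stretch shared most widely starts at base 277 of the Ftl1 coding sequence, at chr7:45458604-45458633 on the minus strand, and 11 genes other than microRNA genes carry it:
Ftl1: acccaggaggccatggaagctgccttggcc
Only 23 stretches were found in no other gene. One of them, at chr7:45458177-45458206 on the minus strand, is set beside the closest stretch of Ftl1-ps1, a copy annotated as protein coding at chr13:74407056-74407085 on the plus strand, with the differing base in capitals:
Ftl1: cctccgcagggtggcGgggccacaaccagc
Ftl1-ps1: cctccgcagggtggcAgggccacaaccagc
The fragments sequenced were 28 to 34 nt long, so most footprints of the light chain could have come from several places. In the deposited values Ftl1 came out as a fraction of a read in all 8 libraries, so its reads were divided with some other gene. Fth1, with 23.6% of its stretches shared, and Tfrc, Slc40a1, Aco1, Ireb2 and Slc11a2 came out as whole reads in all 8. Gm22133, a microRNA gene that lies inside Ftl1 on the same strand, holds 59 of the 520 stretches. Added to the reads of Ftl1, those of Gm22133 gave whole reads in all 8 libraries. The fractions are thus those of this overlapping pair, and they do not show how reads shared with the pseudogenes were treated.

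Little was assigned to these other genes, 19 processed pseudogenes, 12 microRNA genes and 1 gene annotated as protein coding. The 26 of the 32 that had a row summed to 1.83, 3.40, 4.16 and 3.47 CPM in female 1 to 4, against 3.04, 4.26, 3.31 and 4.05 CPM in male 1 to 4. The largest part was Gm22133, the microRNA gene inside Ftl1, with a mean of 1.28 CPM. Ftl1-ps1, named Gm10116 in the deposited tables, averaged 0.0353 CPM. Whether reads with several possible origins were dropped upstream is not stated, and their part in the low level of Ftl1 was not tested.

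The ratio of the chains varied least of the 3 ratios computed, with an SD of 0.17 on the log2 scale over 8 libraries, beside 0.24 and 0.32. Fth1 over Ftl1, per length, was 10.2, 10.3, 11.4 and 12.2 in female 1 to 4, against 14.1, 13.1, 11.7 and 12.9 in male 1 to 4. The libraries labelled male lay higher on the whole, but female 4 stood above male 3, so the labels overlapped. Between libraries of the same number, the female one had the lower ratio in 4 of 4 pairs. These pairs are not independent, because female 1 and female 3 are close, and no share over other genes was counted. Female 1, female 3 and male 1 also went against their label, and the pairing by number is uncertain for number 1. With the reads of all shared genes added to their chain, the ratio ran from 9.63 to 12.8. A ratio within a library does not depend on how the library was scaled, and no test was made of it. Across the 8 libraries the log2 levels of both chains moved together (Pearson r = 0.834, Spearman rho = 0.929), given as a description, because they share library and depth and because female 1 and female 3 are close.

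**Figure D1:**
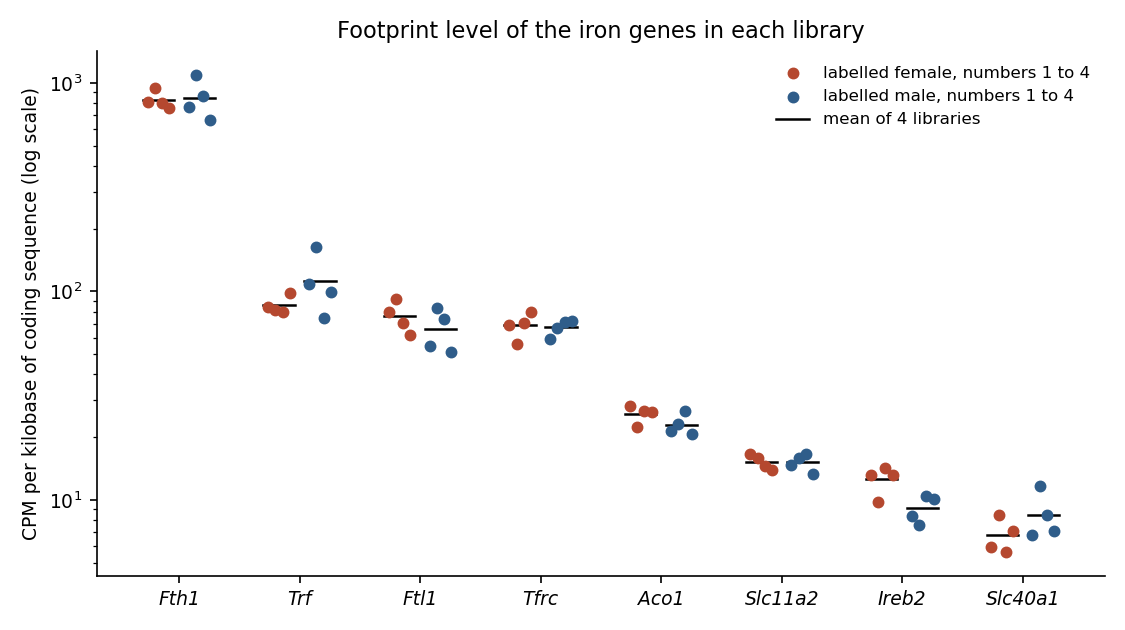
Footprint level of the 8 genes in CPM per kilobase of coding sequence, on a log axis, with 1 point per library (left group labelled female, right group labelled male, numbers 1 to 4 from left to right) and a black line at the mean of 4 libraries. Fth1 lies between 662 and 1096 and no other gene passes 164, the value of Trf in male 2.

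Transferrin came next in level and varied most. Trf (chromosome 9, 103204001 to 103230444), the iron carrier of plasma, also made by myelinating glia, was at 176, 171, 167 and 205 CPM in female 1 to 4. It was at 228, 343, 156 and 208 CPM in male 1 to 4. Male 2 stood above all others and male 3 below all others, so the labels overlapped. Its coefficient of variation over the 8 libraries was 29.1%, more than that of 91.0% of the 9598 genes averaging 10 CPM or more, whose median was 17.3%.

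Trf shares its locus. Gm20425 is annotated as a protein-coding gene on the same strand from 103190208 to 103230307, and 1961 of the 2062 stretches of 30 coding bases of Trf (95.1%) also lie in it. Trf came out as a fraction of a read in 7 of the 8 libraries. Gm20425 was at 120, 89.4, 114 and 84.9 CPM in female 1 to 4, against 70.1, 94.1, 97.0 and 88.4 CPM in male 1 to 4. Trf thus received between 59.5% and 78.5% of the sum of both. That sum was 297, 260, 282 and 290 CPM in female 1 to 4 and 298, 437, 253 and 297 CPM in male 1 to 4, so 7 libraries lay between 253 and 298 CPM and male 2 stood alone.

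Male 2 also had the highest levels of the markers listed for glia of the spinal cord, whose source in these libraries was not tested. Gja1 was the largest of them, at 256 CPM in male 2 and 130 to 185 CPM elsewhere. All 10 markers of oligodendrocytes and astrocytes were highest in it, with a sum of 675 CPM, against 263 to 315 CPM in libraries labelled female and 256 to 302 CPM in the other libraries labelled male. Mobp, a protein of central myelin, was at 25.1 CPM in male 2 and at most 3.87 CPM elsewhere, Mog at 19.4 CPM in male 2 and at most 4.28 CPM elsewhere, and Slc1a2, a glutamate transporter of astrocytes, at 140 CPM in male 2 and at most 27.7 CPM elsewhere. Opalin was the 1 marker listed at 0 in any other library. The 8 markers of myelinating Schwann cells also had their highest sum there, with 5 of the 8 highest in male 2: 19632 CPM, against 14805 to 17269 CPM in female and 13365 to 17645 CPM in the other male libraries. Male 1, with the next highest level of Trf, stood apart in hepatocyte markers: the 6 genes summed to 153 CPM there and to between 3.83 and 22.3 CPM in the other 7, led by Alb at 115 CPM. The part of these tissues in the level of Trf was not tested. In such bulk samples, fewer cells of a type and less RNA per cell cannot be told apart.

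**Figure D2:**
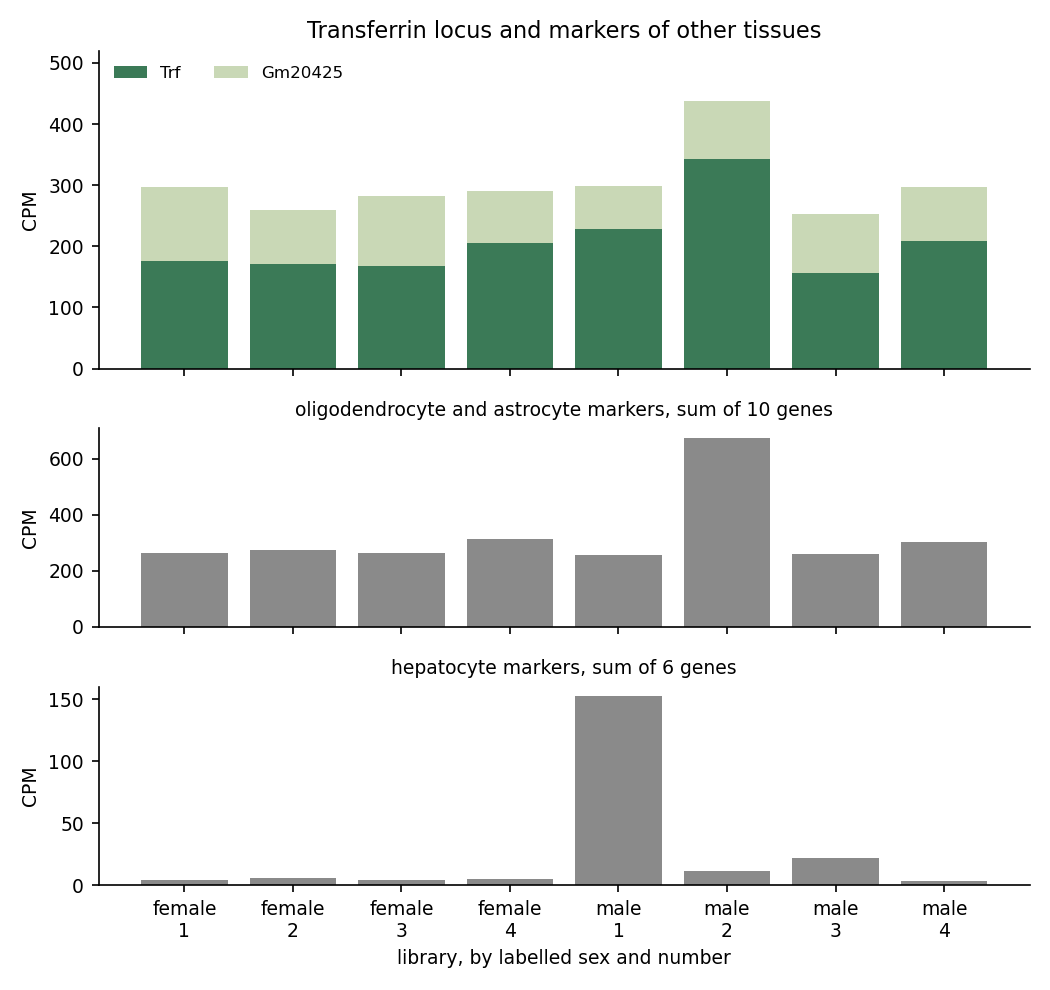
Top, CPM of Trf with that of the overlapping gene Gm20425 stacked on it, per library; middle and bottom, summed CPM of 10 oligodendrocyte and astrocyte markers and of 6 hepatocyte markers. The locus reaches 437 CPM in male 2, where the glial sum is 675 CPM, and the hepatocyte sum of 153 CPM stands in male 1.

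Tfrc (chromosome 16, 32608920 to 32632794), the receptor that takes up loaded transferrin and carries the 4 hairpins printed for it, was even across libraries. It was at 158, 128, 162 and 182 CPM in female 1 to 4, against 135, 153, 163 and 165 CPM in male 1 to 4. Female 2 was the lowest and female 4 the highest, so the range of female libraries enclosed that of male ones. Per kilobase it averaged 68.1 ± 7.42 CPM (SD, n = 8), beside 70.9 for Ftl1 and 98.9 ± 28.8 for Trf. The ranges of Trf and Ftl1 overlapped, as did those of Ftl1 and Tfrc, and Ftl1 was above Tfrc in 4 of 8 libraries.

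Slc11a2 (chromosome 15, 100387898 to 100425072), which moves iron out of endosomes, was the steadiest gene of the set. Its values were 28.3, 26.9, 24.7 and 23.8 CPM in female 1 to 4, against 25.2, 27.2, 28.2 and 22.7 CPM in male 1 to 4. The labels overlapped, with male 4 lowest and female 1 highest. The coefficient of variation was 8.08%, and only 3.88% of genes averaging 10 CPM or more had a lower one. Per kilobase it averaged 15.2 ± 1.23 CPM (SD, n = 8).

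Slc40a1 (chromosome 1, 45908068 to 45926523), the exporter ferroportin, known for its part in macrophages that recycle iron, had the lowest level. It was at 10.1, 14.4, 9.64 and 12.2 CPM in female 1 to 4, against 11.6, 19.9, 14.5 and 12.1 CPM in male 1 to 4. Male 2 was again the highest library and female 3 the lowest, and the labels overlapped. In male 2 the 10 macrophage markers also had their highest sum, 780 CPM, although only 4 of the 10 were highest there, against 557 to 743 CPM in female and 614 to 642 CPM in the other male libraries. Red cell genes, led by Hba-a1, summed to 1349 CPM there, against 497 to 990 CPM in female and 422 to 679 CPM in the other male libraries. Fibroblast markers summed to 17099 CPM in male 2, against 11387 to 12662 CPM in female and 12442 to 15137 CPM in the other male libraries, and endothelial markers to 428 CPM, against 318 to 370 CPM in female and 347 to 361 CPM in the other male libraries. Their part in the level of Slc40a1 was not tested.

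Of the RNA-binding regulators, Aco1 was read above Ireb2 in every library. Aco1 (chromosome 4, 40143081 to 40198338) encodes iron regulatory protein 1, which is an aconitase when it holds an iron-sulfur cluster and binds RNA when it does not. It was at 74.9, 60.0, 71.0 and 70.2 CPM in female 1 to 4, against 57.3, 61.8, 70.9 and 55.0 CPM in male 1 to 4. Female 1 was highest and male 4 lowest, and the ranges of the labels overlapped.

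Ireb2 (chromosome 9, 54863789 to 54912530) encodes iron regulatory protein 2, which is broken down when iron is plentiful. Its values were 37.9, 28.1, 41.0 and 38.2 CPM in female 1 to 4, against 24.1, 21.9, 30.1 and 29.2 CPM in male 1 to 4. Female 1, female 3 and female 4 stood above all 4 libraries labelled male, and female 2 stood among them. Per length, Ireb2 over Aco1 was 0.467, 0.433, 0.533 and 0.503 in female 1 to 4, against 0.388, 0.327, 0.392 and 0.490 in male 1 to 4, where male 4 overlapped with the female libraries. Between libraries of the same number, both Ireb2 and this ratio were higher in the female one in 4 of 4 pairs. These pairs are not independent, because female 1 and female 3 are close, and female 1, female 3 and male 1 went against their label. The share of all genes with the same direction in 4 of 4 pairs was not counted, and the pairing by number is uncertain for number 1.

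Ordered by CPM per kilobase of coding sequence, the genes ran Fth1, Trf, Ftl1, Tfrc, Aco1, Slc11a2, Ireb2 and Slc40a1. Fth1 was 8.63-fold above Trf, Tfrc 2.79-fold above Aco1 and Aco1 1.604-fold above Slc11a2 (geometric means over 8 libraries), each in 8 of 8 libraries and with ranges that did not overlap. The other neighbours overlapped: Slc11a2 was above Ireb2 in 8 of 8 libraries, but its range of 13.3 to 16.6 CPM per kilobase met that of Ireb2, 7.58 to 14.2. Ireb2 was above Slc40a1 in 7 of 8, with the exception of male 2, and Trf above Ftl1 in 7 of 8.

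Ferritin was set against the receptor because the hairpins of both are bound by the same proteins. The sum of Fth1 and Ftl1 over Tfrc, per length, was 12.8, 18.5, 12.3 and 10.3 in female 1 to 4, against 13.9, 17.6, 13.1 and 9.90 in male 1 to 4. The libraries numbered 2 were the highest of each label and those numbered 4 the lowest. The means of both labels differed by -0.02 on the log2 scale, female minus male, less than the SD of 0.35 among female and of 0.34 among male libraries. Within each label, red cell genes were also highest in the library numbered 2, with 990 CPM for female 2 and 1349 CPM for male 2. The same held for Schwann cell markers, with 17269 and 19632 CPM in female 2 and male 2, and for endothelial markers, with 370 and 428 CPM. It did not hold for the sums of neuron, satellite glia, oligodendrocyte and astrocyte, macrophage, fibroblast, skeletal muscle or hepatocyte markers. Male 2 was the highest library for 7 of 8 red cell, 5 of 8 Schwann cell and 5 of 7 endothelial markers. Slco1c1, an endothelial marker, was lowest of all libraries in female 2, at 8.67 CPM. In the libraries numbered 4, the satellite glia sum was the highest of each label, with 8359 CPM in female 4 and 7951 CPM in male 4. The Schwann cell sum was the lowest of each label there, with 14805 and 13365 CPM. No other marker sum was highest, or lowest, there under both labels. The part of red cells, Schwann cells, endothelium and satellite glia in this ratio was not tested.

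**Figure D3:**
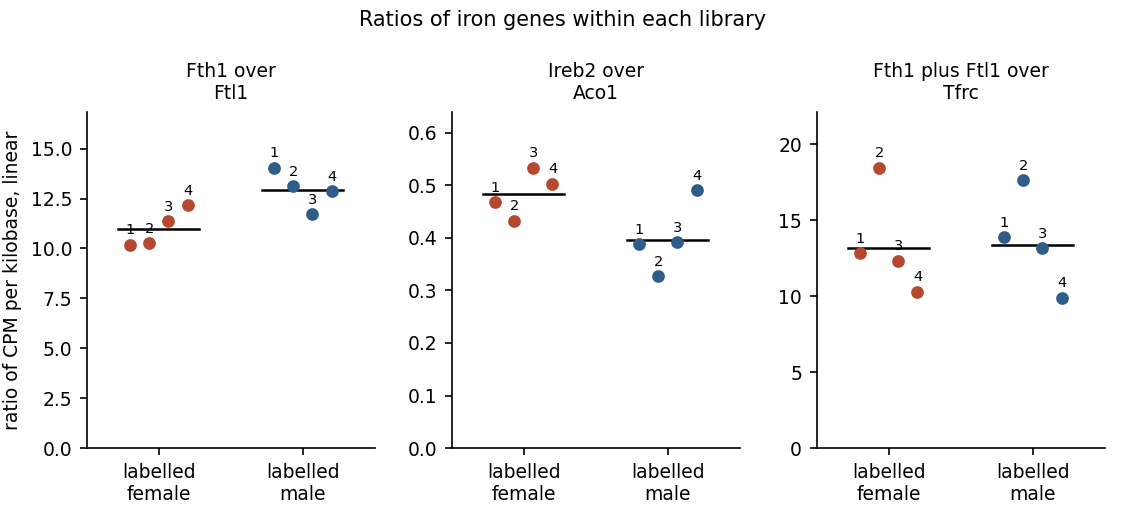
Ratios of CPM per kilobase of coding sequence within each library, on linear axes from 0, with 1 numbered point per library (labelled female left, labelled male right) and a line at the geometric mean of each label. Fth1 over Ftl1 runs from 10.2 to 14.1, Ireb2 over Aco1 from 0.327 to 0.533 and the ferritin sum over Tfrc from 9.90 to 18.5.

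The labelled sexes were then compared across all genes, to see whether any of these 8 differed between them. None did by limma with Benjamini-Hochberg adjustment at 0.05, on log2(CPM + 1): 0 of the 8 genes passed, beside 0 of all 15720 tested (0%). At an unadjusted p under 0.05 there was 1 of 8, Ireb2, beside 13.4% of all genes; it was higher in female, as were 11.9% of all genes. Of all genes at this p, 1877 of 2099 were higher in female, and 992 of 2019 with median-ratio scaling. Further, 0 of 8 had labels that did not overlap, beside 4.55% of all genes. With the replicate number as a block 0 of 8 passed, beside 0.172% of all genes. The genes leaned both ways, 5 with a positive and 3 with a negative log2 fold change (female minus male), with a median of 0.016. That of all genes was 0.15.

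On the deposited scale, Ireb2 came closest to a difference. It averaged 36.3 ± 5.63 CPM under the female label and 26.3 ± 3.97 CPM under the male one (SD, n = 4 each), a log2 fold change of 0.45 (SE 0.16, limma adjusted p = 0.372). It was 0.29 with median-ratio scaling and 0.28 without the 3 libraries that went against their label. Trf averaged 180 ± 17.04 CPM under the female label and 234 ± 78.9 CPM under the male one (SD, n = 4 each; log2 fold change -0.32, SE 0.20, limma adjusted p = 0.456). Its log2 fold change was -0.12 without male 2 and -0.50 without male 3, and with the reads of Gm20425 added it was -0.16 (SE 0.16, limma adjusted p = 0.637). With median-ratio scaling Trf was at -0.48 (limma adjusted p = 0.388, beside 0.417 for Ireb2).

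Ferroportin leaned the same way as transferrin. Slc40a1 averaged 11.6 ± 2.18 CPM under the female label and 14.5 ± 3.82 CPM under the male one (SD, n = 4 each; log2 fold change -0.29, SE 0.19, limma adjusted p = 0.480), and -0.14 without male 2. With median-ratio scaling Slc40a1 was at -0.44 (limma adjusted p = 0.369). Ftl1 was at 0.21 (SE 0.18) on the log2 scale, and at 0.059 with median-ratio scaling and 0.11 without male 4. Aco1 was at 0.17 (SE 0.12), and at 0.013 with median-ratio scaling and 0.059 without the 3 libraries that went against their label. Fth1 (-0.01, SE 0.16), Tfrc (0.02, SE 0.13) and Slc11a2 (0.01, SE 0.12) had the smallest log2 fold changes on the deposited scale. With median-ratio scaling Fth1 moved to -0.17, and the sign of Tfrc and Slc11a2 turned, to -0.13 and -0.15. These were then larger in size than the values of Ftl1 and Aco1. A missing call at these standard errors does not show equal levels.

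**Figure D4:**
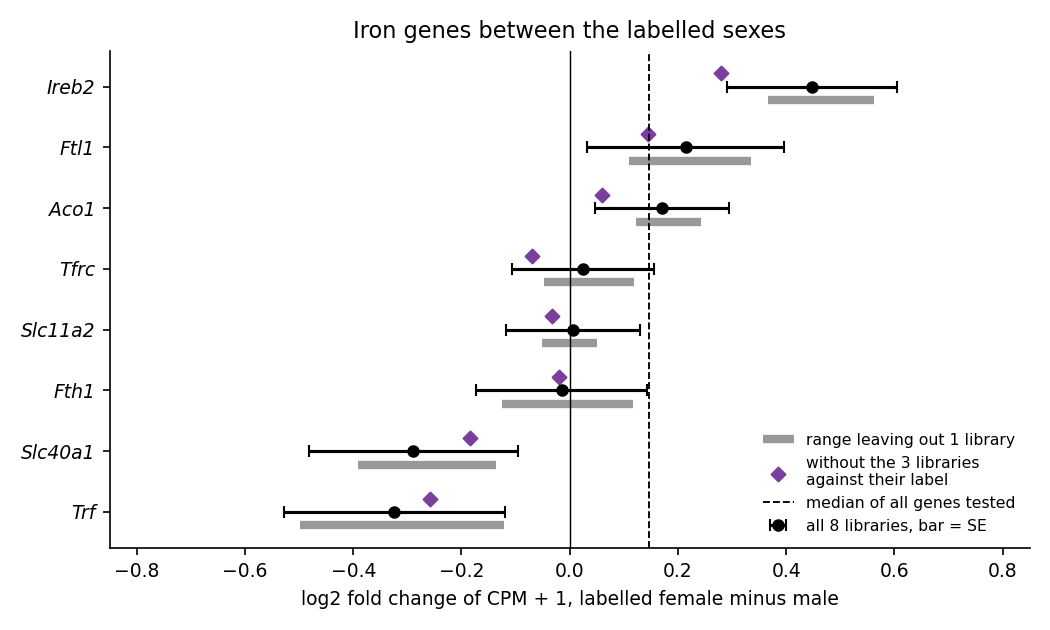
Log2 fold change of CPM + 1, labelled female minus male, for the 8 genes: black points with SE bars are all 8 libraries, grey bars the range when 1 library is left out, purple diamonds the fit without the 3 libraries against their label. The dashed line is the median of all genes tested, 0.15; Ireb2 at 0.45 and Trf at -0.32 lie at the ends.

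The wider iron genes were taken from 8 lists of 98 symbols, of which 90 were in the tables and 83 had a mean of at least 1 CPM. None of the 83 passed between the labels with limma, nor with the block, and 10 had an unadjusted p under 0.05, 9 of them higher in female. These are 12.05% and 10.84% of the 83, beside 13.4% and 11.9% of all genes. The median log2 fold change was 0.12, beside 0.15 for all genes tested.

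Genes listed for iron storage and ferritin handling all leaned to female without a call. The median of all genes did so too, at 0.15, and at 0.0042 with median-ratio scaling. The 5 tested of 6 had log2 fold changes of 0.21 to 0.28, all above that 0.15. They include Pcbp1, a chaperone that brings iron to ferritin, at 295 ± 20.4 CPM under the female label and 251 ± 54.0 CPM under the male one (SD, n = 4 each), Hif1a, a transcription factor controlled by iron-dependent enzymes, at 162 ± 6.84 CPM under the female label and 136 ± 23.8 CPM under the male one, and Ncoa4, the receptor that sends ferritin to the lysosome, at 17.3 ± 2.01 CPM under the female label and 14.9 ± 2.96 CPM under the male one. Ftmt, mitochondrial ferritin, had a read in 1 library only.

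Uptake and export genes had medians below that of all genes, without a call. Of 15 uptake and endosome genes 8 had a positive and 7 a negative log2 fold change, with a median of 0.0077, and 2 of the 15 lay above the 0.15 of all genes. Lrp1, a receptor that clears heme bound to hemopexin, was the most abundant at 1154 ± 96.4 CPM under the female label and 1385 ± 262 CPM under the male one, and Slc22a17, a receptor for lipocalin, followed at 229 ± 22.9 CPM under the female label and 300 ± 64.5 CPM under the male one (SD, n = 4 each). Of 8 export genes tested 4 had a positive and 4 a negative value, with a median of 0.0017, and 3 of the 8 lay above the median of all genes. Cp, the ferroxidase that works beside ferroportin, was at 293 ± 11.1 CPM under the female label and 312 ± 40.4 CPM under the male one, and Neo1, a co-receptor in hepcidin control, at 116 ± 4.21 CPM under the female label and 137 ± 13.7 CPM under the male one. The hepcidin genes Hamp and Hamp2 were listed at 0 in 6 and 7 of the 8 libraries.

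Iron-sulfur and heme genes made up the rest. Of 11 genes of cytosolic iron-sulfur assembly 10 had a positive log2 fold change, with a median of 0.32, and 0 passed. The most abundant were Mms19, at 73.7 ± 3.56 CPM under the female label and 81.1 ± 2.07 CPM under the male one, and Glrx3, a glutaredoxin, at 60.9 ± 4.54 CPM under the female label and 47.2 ± 13.3 CPM under the male one (SD, n = 4 each). Above the 0.15 of all genes lay 8 of these 11. Among 20 mitochondrial genes 18 had a positive value, but their median of 0.16 was close to the 0.15 of all genes, which 10 of the 20 exceeded. They were led in abundance by the chaperone Hspa9 at 307 ± 39.4 CPM under the female label and 229 ± 47.6 CPM under the male one, and by Nfu1 at 51.9 ± 4.94 CPM under the female label and 50.5 ± 14.9 CPM under the male one. Sensory neuron markers had a median of 0.21, with 7 of 10 above the median of all genes, and their part in these values was not tested. Heme synthesis, led by Alad and Alas1, had a median of 0.12 over 9 genes, and heme handling, led by Pgrmc1 and Abcg2, 0.082 over 10 genes.

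Other mRNAs known to carry an IRE were read beside the 8. Epas1, a hypoxia factor with an IRE in its 5′ untranslated region, was at 222 ± 8.73 CPM under the female label and 205 ± 24.2 CPM under the male one (SD, n = 4 each). Of the 6 tested genes of this list, 5 had a positive log2 fold change, and 0 passed. Their median was 0.079, beside 0.15 for all genes, and 2 of the 6 lay above that of all genes.

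**Figure D5:**
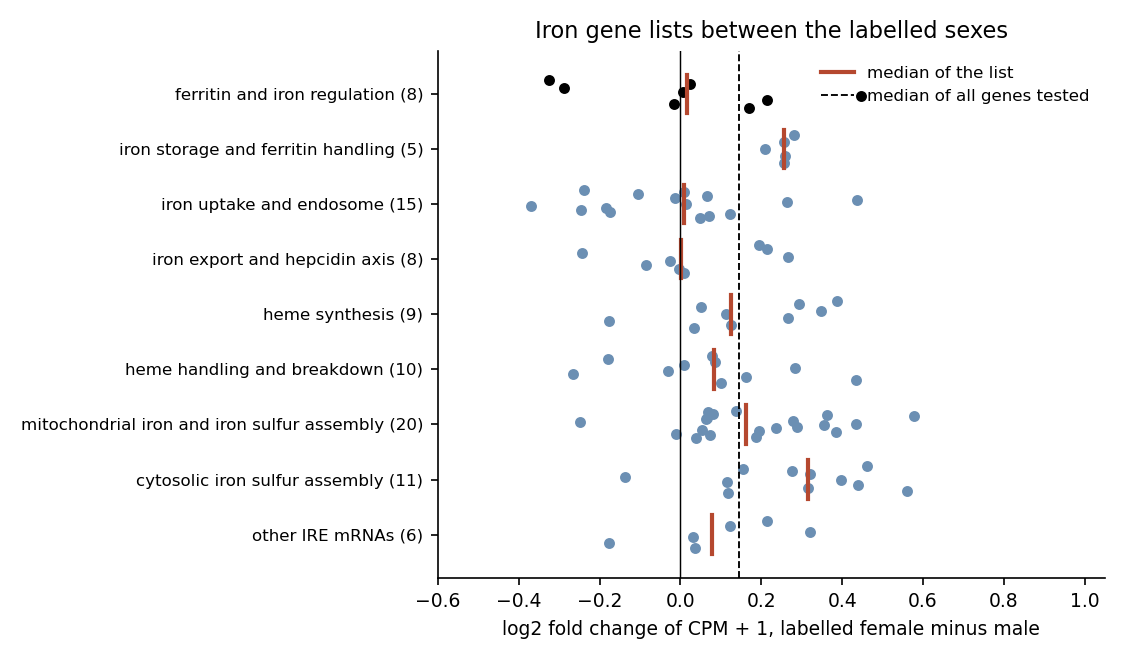
Log2 fold change of CPM + 1, labelled female minus male, for the genes of each iron list (number tested in brackets), 1 point per gene, with the list's median as a red line. The dashed line is the median of all genes tested, 0.15; the median of the 8 ferritin and iron regulation genes is 0.016 and that of the 11 cytosolic iron-sulfur genes 0.32.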

How the data were processed

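Footprint libraries of mouse DRG were deposited as 1 table per labelled sex. Per the submitters' processing notes the tools were Cufflinks 2.2.1, Bowtie2 2.2.9, TopHat2 2.1.1 and FastQC 0.11.5 and the builds GRCm38.p4 and mm10; their roles, order and the annotation are not stated there. The authors' values are named TPM but are CPM: each deposited column summed to 1000000, and 95.7% to 96.5% of values above 0 were whole multiples of 1 step per library (tolerance 0.01 of a step; 2% by chance), whatever the gene. The step gives the depth, between 3697691 and 12714554 reads, so 3 reads are 0.236 to 0.811 CPM. Intervals and floors of this kind cover counting error only. Tests planned on the assumption of TPM were kept, on log2(CPM + 1).

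Columns were matched to samples by sex letter and number. Rows of 1 symbol were summed; the second row named Fth1 is Fth-ps3 in GENCODE M21, in which 99.2% of the identifiers were found and which gave positions, coding lengths and sequences (positions count from 1). Limma 3.58.1 in R 4.3.3 was fitted to the 15720 genes averaging 1 CPM or more, with an intensity trend, two-sided, with Benjamini-Hochberg adjustment at 0.05 over all genes tested, and was checked on simulated data. Female and male libraries of equal number deviated together from the means of their labels (r = 0.288, 0.492, 0.531 and 0.592, each above 0.1). Female 2, female 3 and female 4 matched the male library of their own number best, but female 1 matched male 3 best (r = 0.323). The numbers were taken to pair the libraries, which comes from the data, not the labels, and is uncertain for number 1. Named were all 8 genes, the 2 most abundant genes of each other list, and for likeness the 2 genes with the highest Pearson r among those averaging 10 CPM or more; other genes were named after their values were seen. A gene that this rule names is not reported here. Members and lists were chosen with earlier results of these data known. Other steps ran in Python 3.11.15 (matplotlib 3.10.9, scipy 1.17.1, pandas 2.3.3, numpy 2.4.6). Alternatives were another pseudocount, filter and scaling, the block, and libraries left out or averaged.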

Additional observations from a re-analysis of the deposited data

How the results depend on the processing

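None of the 8 genes passed under any of the alternatives run; the smallest limma adjusted p was 0.139, for Ireb2 without male replicate 3. Over all genes, the replicate block gave 10 higher and 17 lower in female, but 0 and 0 with protein-coding genes alone, and the fit without the 3 libraries against their label 5 lower in female; leaving out each library in turn gave 0 and 0. The block changed no call of these genes. Ireb2, Ftl1, Aco1, Slc40a1 and Trf kept their direction throughout, but Aco1 shrank to 0.0019 and Ftl1 to 0.052 with quantile normalization. Fth1 turned to 0.027 without female 4, 0.12 without male 2 and 0.0032 without male 3, with a range of -0.13 to 0.12 when 1 library was left out. Tfrc turned to -0.13 with median-ratio scaling, -0.12 with quantile normalization, -0.074 with protein-coding genes alone (with or without the block), -0.047 without female 4, -0.036 without male 1 and -0.070 without the 3 libraries against their label (range when 1 library was left out -0.047 to 0.12). Slc11a2 turned to -0.15, -0.16 and -0.089 under the same 3 scalings, to between -0.051 and 0.050 when 1 library was left out, to -0.033 without the 3 libraries and to -0.0019 with female 1 and female 3 averaged. The cause was not tested. Median-ratio scaling moved the median of all genes to 0.0042 from 0.15. The mean log2 ratios stayed within 1 SD: Fth1 over Ftl1 between 3.54 and 3.60, Ireb2 over Aco1 between -1.24 and -1.14 and ferritin over Tfrc between 3.66 and 3.79 when 1 library was left out. Without length Ftl1 came 5th and Tfrc 3rd in level, and without female 2 they changed places. Adding the genes that share stretches gave mean log2 ratios of 3.45 for the chains and 3.74 for ferritin over Tfrc. For fold changes and calls this alternative was chosen after seeing the data, as was the block with protein-coding genes alone. Count models were not run, because Ftl1, Trf and others hold fractions of a read.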

Other observations

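For each gene the 2 most similar profiles were looked up among the 9590 other genes averaging 10 CPM or more, by Pearson r of log2(CPM + 1) over the 8 libraries. These are the highest of many values, over libraries that share depth and pairing, and carry no test. Fth1 was followed most closely by Tmem258 (r = 0.991, Spearman rho = 0.976) and Hacd2, an enzyme of fatty acid elongation (0.986), and Ftl1 by Atp5g1, a subunit of ATP synthase, and Nod1, a sensor of bacterial cell wall (both 0.979). For Trf these were Qsox1, an enzyme that forms disulfide bonds (0.975), and Glmp, a lysosomal membrane protein (0.970). Slc40a1 was most like Abhd3 (0.976) and Dcn, a proteoglycan of fibroblasts (0.974), Tfrc like Tmem165 (0.954) and Prpf4, a splicing factor (0.952), and Aco1 like Aatf (0.988) and Gbe1, the glycogen branching enzyme (0.981). Ireb2 was most like Ndufaf7, an assembly factor of complex I (0.985), and Cebpz (0.984), and Slc11a2 like Clpp, a mitochondrial protease (0.969), and Cox7a2l (0.932).

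Among the 28 pairs within the set, the log2 levels of Slc40a1 and Ireb2 ran most strongly opposite by Pearson r (r = -0.757, Spearman rho = -0.571, n = 8). Ireb2 and Trf followed (r = -0.674, rho = -0.643), while Aco1 and Ireb2 ran together (r = 0.726, rho = 0.667). By rho the order differed: Ireb2 and Trf came first, followed by Fth1 and Tfrc (r = -0.383, rho = -0.619). In male 2, where Slc40a1 and Trf were highest, Ireb2 was lowest.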
